A study of Mus musculus with 24 samples.

Results

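The genes described here encode the subunits of the oxidative phosphorylation machinery, 83 from nuclear DNA and 13 from mitochondrial DNA, in bone marrow-derived dendritic cells (BMDCs) of WT and TTP-/- mice. They were chosen by gene name: Ndufa, Ndufb, Ndufc, Ndufs and Ndufv followed by a digit, Sdha to Sdhd, names starting with Uqcr, Cyc1, Cycs, Cox4 to Cox8, and Atp5, and the mt-Nd, mt-Co, mt-Atp and mt-Cytb genes. That gave 96 of the 23394 genes listed in all 4 tables of the study. A second entry named Ndufa13, which GENCODE annotates as Yjefn3, was left out. Complex I was represented by 37 nuclear and 7 mitochondrial genes, complex II by 4 nuclear genes, complex III by 9 and 1, complex IV by 15 and 3, complex V by 17 and 2, and cytochrome c by Cycs. Genes were assigned to complexes by name alone. Ndufa4 and Ndufa4l2 thus count as complex I, and every name starting with Atp5 counts as complex V. BMDCs were grown with GM-CSF from bone marrow of C57BL/6 mice aged 9 to 12 weeks and were harvested before (0 h) and after addition of lipopolysaccharide (LPS) at 10 ng/ml, with harvests at 3 h, 6 h and 9 h. TTP-/- mice lack the Zfp36 gene product tristetraprolin, an RNA-binding protein that promotes decay of mRNAs, in every cell, so the cells also grew from marrow that lacked it. Each of the 8 groups held 3 libraries of biological replicates, 24 in all, and the deposited values are FPKM (fragments per kilobase of gene, scaled to sequencing depth), normalized separately for each time.

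Complexes I to IV form the respiratory chain. Complex I takes electrons from NADH and complex II from succinate, complex III passes them from ubiquinol to cytochrome c, complex IV hands them to oxygen, and complex V, the ATP synthase, uses the resulting proton gradient. The catalytic core of complexes I, III, IV and the proton channel of complex V are partly encoded by mitochondrial DNA, whereas complex II is entirely nuclear. Dendritic cells are known to move from oxidative phosphorylation towards glycolysis after stimulation with LPS, and the comparisons below address how the transcripts of both genomes behaved with genotype and time of LPS.

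The mitochondrially encoded genes split into 2 classes by how many reads they received. mt-Co1, mt-Nd1, mt-Cytb, mt-Nd4, mt-Nd5, mt-Nd2 and mt-Nd6 held from 16697 reads (the lowest library of mt-Nd6) to 1069158 reads (the highest library of mt-Co1). mt-Co2, mt-Atp8, mt-Atp6, mt-Co3, mt-Nd4l and mt-Nd3 held between 0 and 439 reads in any library, although they lie on the same polycistronic heavy-strand transcript between mt-Co1 and mt-Nd4. Old copies of mitochondrial DNA in the nuclear genome carry much of this stretch. A window of 100 bases, the length of a read, occurred exactly in another annotated gene for 99.9% of the windows of mt-Co3, 99.5% of those of mt-Co2 and of mt-Atp6, 98.5% of mt-Nd4l and 97.6% of mt-Nd3. The share was 60.8% for mt-Nd4, 30.8% for mt-Co1, 3.19% for mt-Nd2 and 0 for mt-Nd1, mt-Nd5, mt-Nd6 and mt-Cytb. mt-Atp8 also had few reads (2 to 53 per library) but a share of 0. The share counts annotated genes only, so copies elsewhere in the nuclear genome were not searched. Its neighbours mt-Co2 and mt-Atp6 both have copies on chromosome 1 that matched with 0 differences. The copies themselves held 528 to 2562 reads per library when summed. How reads with more than 1 possible origin were counted is not given in the sources used here, so the levels of these 6 genes are uncertain and their part in any comparison is kept apart below.

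Sequence of a gene from each class shows what a read could and could not tell apart. The first 60 bases of mt-Co3 (chrM:8607-9390, plus strand, GRCm38) are shown with those of its copy Gm28437 on chromosome 1, which matched over 783 of 783 bases.
mt-Co3: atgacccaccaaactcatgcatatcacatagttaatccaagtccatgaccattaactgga
Gm28437: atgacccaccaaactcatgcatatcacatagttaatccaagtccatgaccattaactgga
For mt-Co1 (chrM:5328-6872, plus strand), bases 460 to 519 of the gene are shown with the same bases of Gm13340 on chromosome 2, which differed at 37 of 1545 positions. Capitals mark the 4 bases that differ in this stretch.
mt-Co1: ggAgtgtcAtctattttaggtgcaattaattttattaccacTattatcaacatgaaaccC
Gm13340: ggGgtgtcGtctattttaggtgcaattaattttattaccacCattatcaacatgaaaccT
The mt-Co3 stretch held no difference at all, whereas a read over the mt-Co1 stretch crossed several. The mt-Co1 stretch was chosen as the first of 60 bases with the most differences from Gm13340. Over the whole of mt-Co1, 30.8% of the windows occurred exactly in another annotated gene, most often Gm29216. In these libraries mt-Co1 held at least 390271 reads and mt-Co3 at most 439, and the part of shared sequence in this was not tested.

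**Figure D1:**
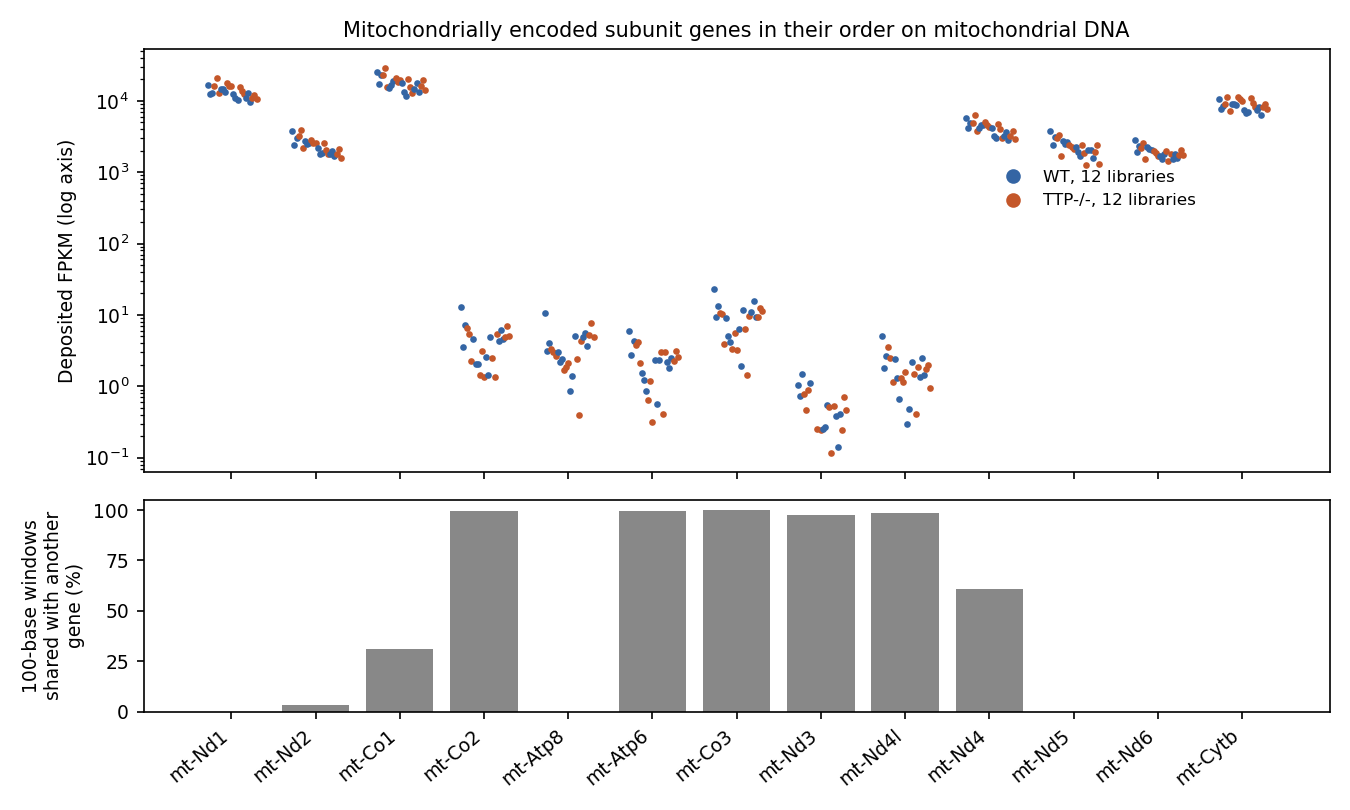
Deposited FPKM of each mitochondrially encoded subunit gene in every library (upper panel, log axis; a library at 0 is not drawn) and the share of its 100-base windows found in another annotated gene (lower panel, percent), with genes in their order along mitochondrial DNA. The 7 genes with many reads lie above 1000 FPKM in every library and the other 6 lie far below, and all of these but mt-Atp8 have shares of 97.6% or more.

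Levels between genes are compared on exon length, since the deposited FPKM divide by the whole gene span with introns. Exon length here is the union of all annotated exons of a gene, which can far exceed 1 transcript. For Atp5e it is 1756 bases beside 421 in its longest coding transcript, and for Cox8a 619 beside 550. The order of genes depends on this choice of length. On that scale (FPKM per exon length, mean over 24 libraries) mt-Co1, a catalytic subunit of complex IV, was the highest gene at 17568 ± 2955 (SD, n = 24). mt-Nd1 followed at 13497 ± 2408 and mt-Cytb at 8680 ± 1687, and the ranges of 1 SD overlapped between mt-Co1 and mt-Nd1 but not between mt-Nd1 and mt-Cytb. mt-Nd4 (4054), mt-Nd2 (2337), mt-Nd5 (2234) and mt-Nd6 (1891) came next, and the ranges of 1 SD of mt-Nd2, mt-Nd5 and mt-Nd6 overlapped. The 6 genes with few reads had means from 0.449 (mt-Nd3) to 8.47 (mt-Co3). The highest nuclear gene on this exon length was Cox8a, the isoform of complex IV subunit 8 present in most tissues, at 467 ± 81.2. The leading genes of the other complexes were Ndufa3 of complex I (232), Atp5e, the epsilon subunit of the ATP synthase (143), Uqcrh, the hinge protein of complex III (116), and Sdhd, a membrane anchor of complex II (48.8). Over the 83 nuclear genes the median was 24.9, and over the 74 of them that were tested 36.4, beside 7.32 for all genes with a mean deposited value of at least 0.5 FPKM.

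Tissue-specific isoforms were near the floor. Cox8a, Cox4i1 (172), Cox6a1 (196), Cox6b1 (225) and Cox7a2 (62.3) carried their subunits, on exon length. Their counterparts known from heart and muscle, lung or testis were lower: Cox7a1 at 1.40, Cox6b2 at 1.11, Cox6a2 at 0.261 and Cox4i2 at 0.246. Cox4i2, the isoform known for its induction by low oxygen, was listed at 0 in all 6 libraries at 0 h. Ndufa4l2, a paralog of Ndufa4 induced by hypoxia in other cells, had a mean of 0.0440. Cox7b2, Cox8b and Cox8c were not among the gene names. Of the 96 genes, 86 had a mean of at least 0.5 deposited FPKM and were tested, 74 nuclear and 12 mitochondrial. Those left out were Ndufa4l2, Ndufs4, Cox4i2, Cox6a2, Cox7a1, Atp5g2, Atp5l, Atp5s, Cycs and mt-Nd3, with mt-Nd3 (0.481) and Cox7a1 (0.405) just outside and Ndufs1 (0.549) and Ndufa5 (0.574) just inside the minimum. The low value of Cycs, which encodes the electron carrier cytochrome c, is uncertain, because 24.7% of its windows are shared, mostly with Gm10053. The same holds for Atp5l (69.0%, mostly with Gm10221). Genes with more reads also had shared windows, such as Ndufb4 (33.4%), Atp5h (29.5%) and Ndufb6 (28.2%). The part of shared sequence in the level of any of these genes was not tested. Ndufs4 lies in a gene span of 100464 bases, which lowers its deposited value. Atp5o is uncertain too, since its deposited mean of 0.580 FPKM is low for 2400 to 5901 reads (71.1 on exon length) and it shares 30.3% of its windows with a second entry of the same name.

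The libraries held 19966708 to 25553546 reads assigned to genes. Zfp36 mRNA was lower in every TTP-/- library than in every WT library of its time, by 1.11 ± 0.12 (log2, SE) at 0 h and by 0.29 to 0.50 after LPS, with adjusted p of 0.058 at 6 h and past the threshold at the other times. The cultures also differed in markers of other cells. Neutrophil genes were higher in TTP-/- for 15 of 17 tested at 0 h and for 16 of 17 later, and their summed FPKM was 221 to 304 in WT and 1315 to 2060 in TTP-/- libraries at 0 h and 88.9 to 112 against 633 to 693 at 9 h. Of 10 eosinophil, basophil and mast cell genes 8 or 9 were higher (summed 33.6 to 41.0 against 180 to 227 at 0 h), of 9 macrophage genes 7, 1, 8 and 8 were higher and 1 lower at each time (85.0 to 113 against 199 to 254 at 0 h), and all 3 B and plasma cell genes tested were higher at each time (5.94 to 8.35 against 56.4 to 90.3 at 0 h). The 1 tested T and NK cell gene was lower at each time, while the list summed to 1.03 to 1.36 against 0.865 to 1.24 at 0 h, with overlap, and to 0.693 to 1.16 against 1.33 to 1.52 at 3 h. Dendritic cell genes were lower for 14, 14, 12 and 18 of 20 (7588 to 8629 against 4091 to 6311 at 0 h). Cell cycle genes were higher for 14, 13, 10 and 12 of 14 and lower for 0, 0, 1 and 1 (30.6 to 34.9 against 94.7 to 147 at 0 h). None of these lists had a marker at 0 in every library. The part of this in the genotype comparisons below was not tested, and in bulk libraries fewer cells of a type and less RNA per cell cannot be told apart.

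The 13 mitochondrial genes together took 4.32% to 10.0% of the assigned reads of a library, and the 83 nuclear genes 0.448% to 0.818%. In untreated WT cells the nuclear share was 0.698% ± 0.0152 (SD, n = 3) and in untreated TTP-/- cells 0.773% ± 0.0405, and every TTP-/- library was above every WT library. After LPS the nuclear share fell below all untreated libraries in both genotypes, to means of 0.555%, 0.483% and 0.544% in WT and of 0.556%, 0.507% and 0.501% in TTP-/- at 3, 6 and 9 h. A share also depends on the reads of all other genes. On the common scale of the time course below, the median log2 change of the tested nuclear genes was 0.12, -0.07 and 0.14 in WT. In TTP-/- it was -0.10, -0.22 and -0.21. The mitochondrial share had means of 7.14%, 6.15%, 4.96% and 5.12% in WT and of 8.06%, 7.58%, 6.45% and 5.96% in TTP-/- at 0, 3, 6 and 9 h. It overlapped between the genotypes at 0, 6 and 9 h. Reads from mitochondrial DNA per read from a nuclear subunit gene were 11.1 in WT and 13.6 in TTP-/- at 3 h and 9.41 and 11.9 at 9 h, without overlap at either time. At 0 h the means were 10.2 and 10.4, and at 6 h they were 10.3 and 12.9 with overlap (exact permutation p = 0.4). With 3 libraries against 3 the exact permutation test (two-sided) cannot go below p = 0.1, which all comparisons without overlap reached, and over the 30 comparisons of these shares the smallest adjusted value was 0.231.

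**Figure D2:**
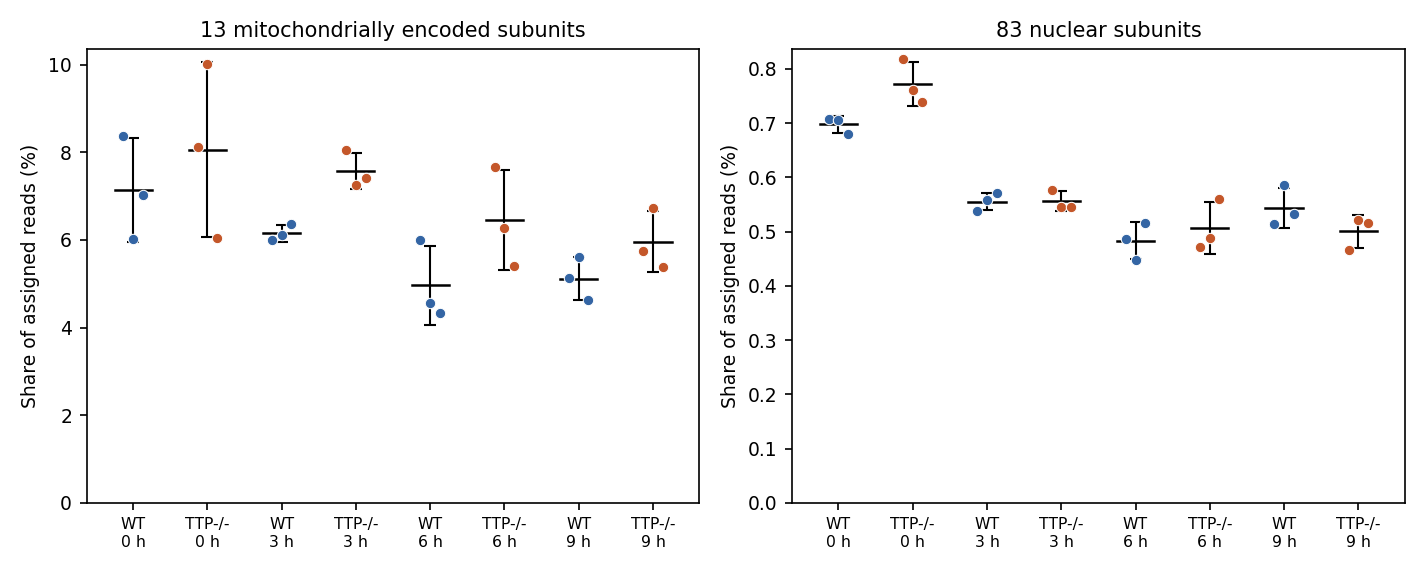
Share of assigned reads (percent) in the mitochondrially encoded genes (left) and in the nuclear subunit genes (right) by genotype and time of LPS; points are libraries, lines are means and bars are SD (n = 3). The nuclear share of all 6 untreated libraries lies above that of all 18 stimulated libraries.

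The genotype comparison asked which subunit genes differed between TTP-/- and WT cultures at each time. Throughout, a gene is called higher or lower where the limma adjusted p over all genes tested is at most 0.05, and fold changes are on the log2(FPKM + 0.1) scale. In unstimulated cells 3 nuclear subunits were higher in TTP-/- (Atp5g1, Sdhc and Sdhb) and 3 were lower (Cox7a2l, Uqcrh and Cox4i1), of 74, beside 13.9% higher and 15.5% lower among all genes. At 3 h, 1 was higher (Ndufa4) and 5 were lower (Cox7a2l, Ndufb10, Cox4i1, Cox6b1 and Cox6b2), with 11.3% and 14.6% of all genes. At 6 h none was higher and 3 were lower (Uqcrh, Cox4i1 and Cox7a2l), with 10.4% and 6.7%. At 9 h none was higher and 16 were lower, with 17.7% and 19.1%, so that 21.6% of the tested subunits were lower, a share near that of all genes. The median change of the 74 genes was 0.12, -0.05, -0.06 and -0.21 at the 4 times, beside -0.04, -0.05, -0.06 and -0.05 for all genes. Scaling to all assigned reads gave 9 higher with 1 lower at 0 h, 6 with 2 at 3 h, none at 6 h and 2 with 7 at 9 h, and turned the medians at 3 and 6 h to 0.09 and 0.08.

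The complex IV and complex III genes Cox4i1, Cox7a2l and Uqcrh were called lower at 3 or more of the 4 times. Cox4i1, the isoform of complex IV subunit 4 present in most tissues, stood at 60.7, 60.9 and 62.5 FPKM in WT as compared to 46.6, 44.2 and 44.7 in TTP-/- at 0 h. At 9 h it had 45.6, 56.6 and 47.5 in WT and 28.8, 34.9 and 30.5 in TTP-/-. The groups did not overlap at either time, and Cox4i1 was lower at all 4 times, by 0.44 ± 0.10 at 0 h (log2, SE; adjusted p = 0.015), 0.47 at 3 h, 0.47 at 6 h and 0.67 ± 0.12 at 9 h (1.59-fold, adjusted p = 0.0045). The 9 h call held in all 6 omissions of a replicate, the 0 h call in 3, and the 3 h and 6 h calls in 1 each.

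Cox7a2l, a relative of subunit 7a studied for a part in supercomplexes of complexes III and IV, was the other gene lower at all 4 times. Whether its protein has that part in these C57BL/6 cells was not measured. It had 9.38, 9.63 and 9.84 FPKM in WT and 5.79, 6.10 and 5.90 in TTP-/- at 0 h, values that were tight within each group and apart between them. The log2 change was -0.69 ± 0.09 at 0 h (1.61-fold, adjusted p = 0.0023), -0.52 at 3 h, -0.41 at 6 h and -0.68 ± 0.15 at 9 h (adjusted p = 0.011). Its call held at 0, 3 and 9 h whichever replicate was left out, whereas at 6 h it was kept without WT replicate 1 alone.

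Uqcrh, an acidic subunit of complex III that helps cytochrome c dock, showed the strongest fall. At 0 h it had 26.4, 20.4 and 28.3 FPKM in WT and 17, 18.2 and 12.4 in TTP-/-, and at 9 h 19.2, 28.2 and 25.3 in WT and 9.11, 11.7 and 12.4 in TTP-/-. The TTP-/- libraries were all below the WT libraries at both times. The log2 change was -0.66 ± 0.19 at 0 h (adjusted p = 0.040), -0.71 at 3 h (adjusted p = 0.074), -0.73 ± 0.17 at 6 h (adjusted p = 0.029) and -1.12 ± 0.18 at 9 h (2.17-fold, adjusted p = 0.0025). At 9 h it held in all 6 omissions, at 0 and 6 h in 2 of 6 each.

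**Figure D3:**
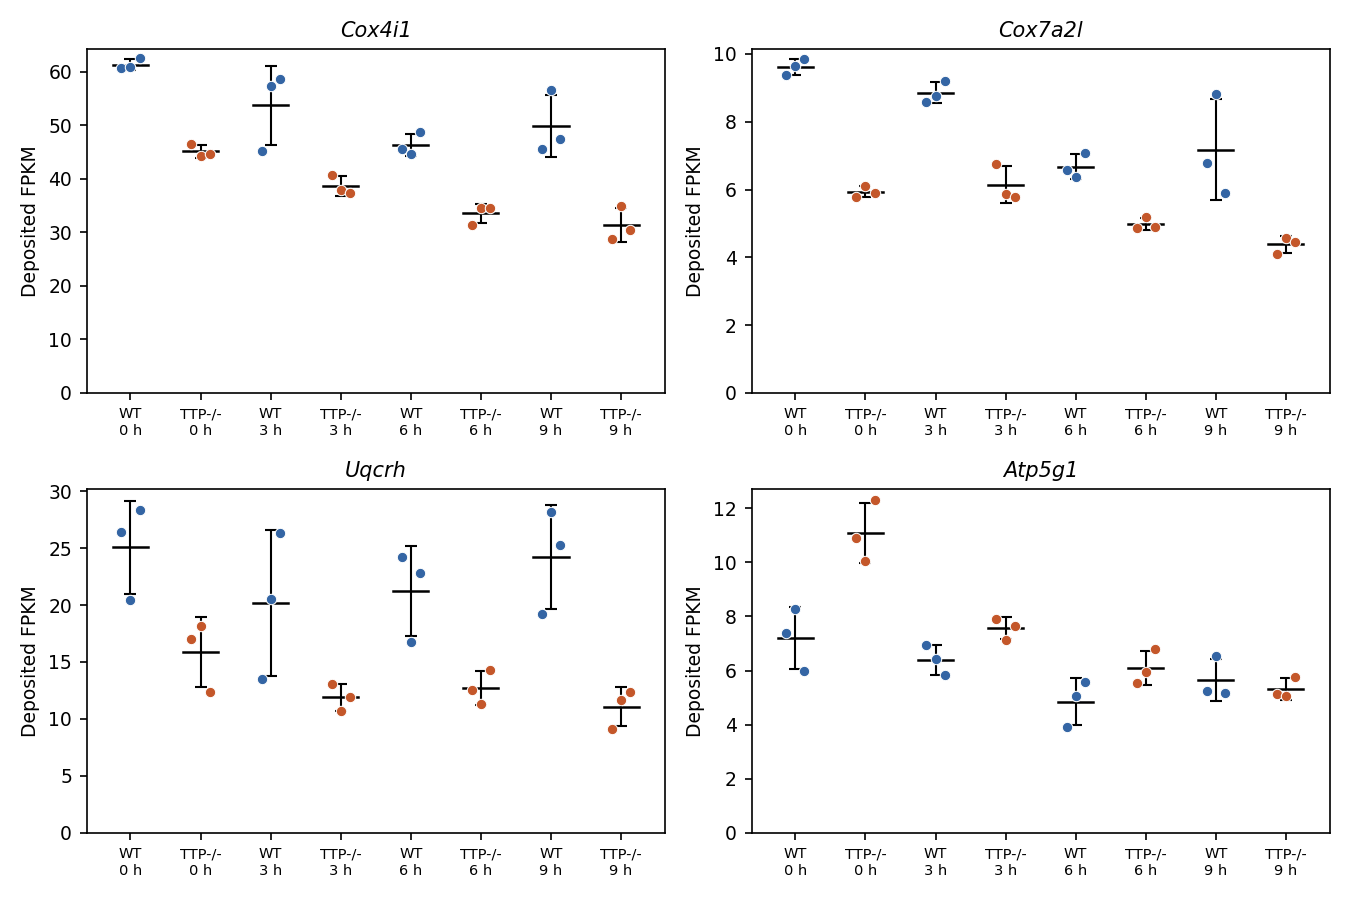
Deposited FPKM of Cox4i1, Cox7a2l, Uqcrh and Atp5g1 in every library by genotype and time of LPS; points are libraries, lines are means and bars are SD (n = 3). Cox4i1 and Cox7a2l lie lower in TTP-/- at every time, and Atp5g1 is higher in TTP-/- at 0 h with 10.9, 10.1 and 12.3 FPKM against 7.37, 8.27 and 5.96 in WT.

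The subunits higher in untreated TTP-/- cells lay in complexes II and V. Atp5g1 encodes a copy of the membrane c-ring subunit of the ATP synthase; it was 1.54-fold higher at 0 h (0.62 ± 0.15, adjusted p = 0.022) and at 9 h the groups overlapped (5.23, 6.53 and 5.19 against 5.15, 5.05 and 5.78). Of the 4 subunits of complex II, Sdhb, the iron-sulfur subunit, had 1.70, 1.57 and 1.5 FPKM in WT and 2.47, 2.21 and 1.86 in TTP-/- at 0 h (adjusted p = 0.048). Sdhc, a membrane anchor, had 3.13, 3.21 and 2.58 against 4.59, 3.71 and 4.18 (adjusted p = 0.036). Sdha, the flavoprotein, overlapped at 0 h with 2.67, 2.40 and 2.73 in WT and 3.02, 2.75 and 2.26 in TTP-/-, as did Sdhd with 9.68, 10.8 and 9.64 and with 11.8, 9.64 and 12.2. None of the 4 was called at 3, 6 or 9 h. Sdhb kept its call in 1, Sdhc in 2 and Atp5g1 in 3 of the 6 omissions of a replicate.

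At 9 h the 16 lower genes were spread over complex I (9 of 35), complex III (1 of 9), complex IV (4 of 12) and complex V (2 of 14), and complex II had none. After Uqcrh the strongest fall was that of Ndufa6, an accessory subunit of the complex I peripheral arm, with 17.6, 20.6 and 18.8 FPKM in WT and 11.1, 12.7 and 11 in TTP-/- (-0.71 ± 0.10, 1.63-fold, adjusted p = 0.0015). Its call held in all 6 omissions. Atp5h, a subunit of the peripheral stalk of complex V, had 10.3, 12.0 and 13.5 against 7.35, 8.60 and 7.74 (-0.58 ± 0.12). Ndufa2 (-0.57), Atp5j2 (-0.55), Ndufb10 (-0.52) and Cox5b (-0.42) followed, and Ndufa3, Ndufs3, Cox6b1, Ndufa10, Ndufv2 and Ndufb9 fell by 0.27 to 0.38. The count was 5 without TTP-/- replicate 1, 7 without TTP-/- replicate 3 or WT replicate 3, 9 without WT replicate 2, 13 if WT replicate 1 was left out and 19 if TTP-/- replicate 2 was.

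Ndufa4 and Cox6b2 were called at 3 h and at no other time; whether the difference changed with time is tested further on. Ndufa4, which is named for complex I but is known as a subunit of complex IV, was higher with 4.16, 4.94 and 5.23 in WT and 7.05, 6.35 and 6.10 in TTP-/- (0.44 ± 0.11, adjusted p = 0.030). Cox6b2, the isoform known from testis, was lower with 1.21, 1.58 and 1.71 against 1.07, 0.956 and 0.684 (-0.68 ± 0.19, adjusted p = 0.040), near the minimum level. Ndufa4 kept its call in 2 and Cox6b2 in 1 of 6 omissions, and without WT replicate 1 the 3 h count was 16 lower and 5 higher. At 6 h, where replicates with the same number deviated together, a fit with the replicate block gave 5 higher and 5 lower in place of 0 and 3.

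**Figure D4:**
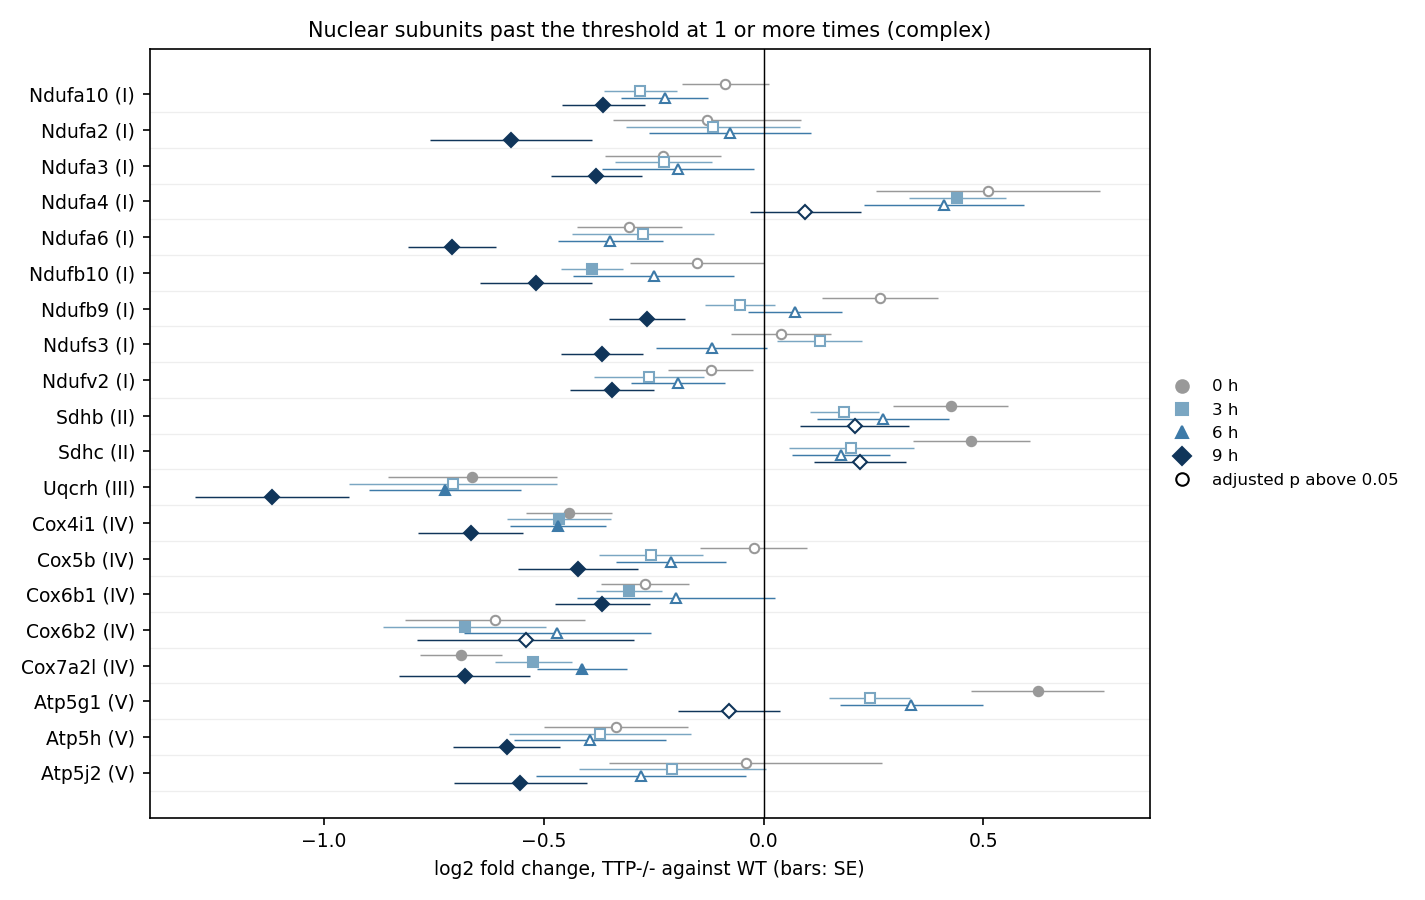
Log2 fold change of TTP-/- against WT for 20 of the 21 nuclear subunits called at 1 or more times, with their complex; bars are SE (n = 3 and 3), filled symbols have an adjusted p of at most 0.05 and open symbols do not. Of all 21, 17 were lower and 4 higher in at least 1 comparison.

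None of the 12 tested mitochondrial genes was called between genotypes at any time by limma, and unadjusted p was under 0.05 for 0, 4, 1 and 0 of them. For the 7 genes with many reads the median change was 0.01, 0.07, 0.17 and 0.03 at 0, 3, 6 and 9 h. The nearest to a difference was mt-Cytb, the mitochondrially encoded core of complex III, with 7399, 6790 and 6856 FPKM in WT and 10823, 9184 and 8241 in TTP-/- at 6 h (0.42 ± 0.14, adjusted p = 0.099) and 8917, 8886 and 8602 against 11157, 10553 and 9830 at 3 h (0.25 ± 0.08, adjusted p = 0.069). The libraries did not overlap at either time, while mt-Co1 overlapped at 6 h with 17874, 13077 and 11793 against 20112, 15810 and 12938 for replicates 1 to 3, the TTP-/- library being the higher in each same-numbered pair. A fit on recovered reads with voom called 2 mitochondrial genes higher at 3 h and 1 at 6 h, and the fit with the replicate block also called 1 higher at 6 h, where same-numbered replicates deviated together. Of the mitochondrial ribosomal RNAs, mt-Rnr1 was lower in TTP-/- at 3 h (-0.63 ± 0.18, adjusted p = 0.042) and at 6 h (-0.66 ± 0.17, adjusted p = 0.039), and mt-Rnr2 was not called.

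The time course asked how LPS moved the same genes within a genotype. Values of the 4 times were first put on 1 scale with size factors over all 24 libraries, which were 1.28 to 1.52 in untreated and 0.82 to 1.02 in stimulated libraries. The median change of all genes was then 0.08 to 0.11, whereas scaling to all assigned reads put it at -0.32 to -0.45, so log2 changes are also given less the median of all genes and the direction of any single gene depends on this choice. On the common scale 17 nuclear subunits rose and 7 fell in WT at 3 h, where 33.3% of all genes rose and 19.6% fell. At 6 h 5 rose and 11 fell (all genes 34.7% and 21.6%), and at 9 h 23 rose and 10 fell (35.8% and 22.0%). In TTP-/- cells 2 rose and 20 fell at 3 h (all genes 31.7% and 22.4%), 7 rose and 25 fell at 6 h (35.6% and 24.6%), and 4 rose and 31 fell at 9 h (37.2% and 24.5%). The median of the 74 genes less that of all genes was 0.02, -0.18 and 0.03 in WT and -0.17, -0.32 and -0.33 in TTP-/-. With all assigned reads as the scale none rose, and 46, 62 and 46 fell in WT and 56, 64 and 65 in TTP-/-. Without TTP-/- replicate 1 the falls in TTP-/- were 5, 10 and 11, and without TTP-/- replicate 2 they were 5, 12 and 27.

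The calls are given by complex with no test between complexes. Complex I had 35 of the 74 tested genes, and in TTP-/- cells 10, 15 and 20 of them were lower at 3, 6 and 9 h and 0, 1 and 0 were higher. In WT cells 6, 7 and 7 were lower and 7, 2 and 7 higher. Complex V had 3, 5 and 7 of 14 lower in TTP-/- cells. Complex IV had rises in WT for 5, 1 and 6 of 12 genes and falls for 1 at each time, and in TTP-/- cells rises for 2, 4 and 2 and falls for 3, 1 and 2. Complex II had 2, 2 and 1 of 4 lower in TTP-/- and 2 higher in WT at 9 h, and complex III had at most 3 of 9 in either direction.

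**Figure D5:**
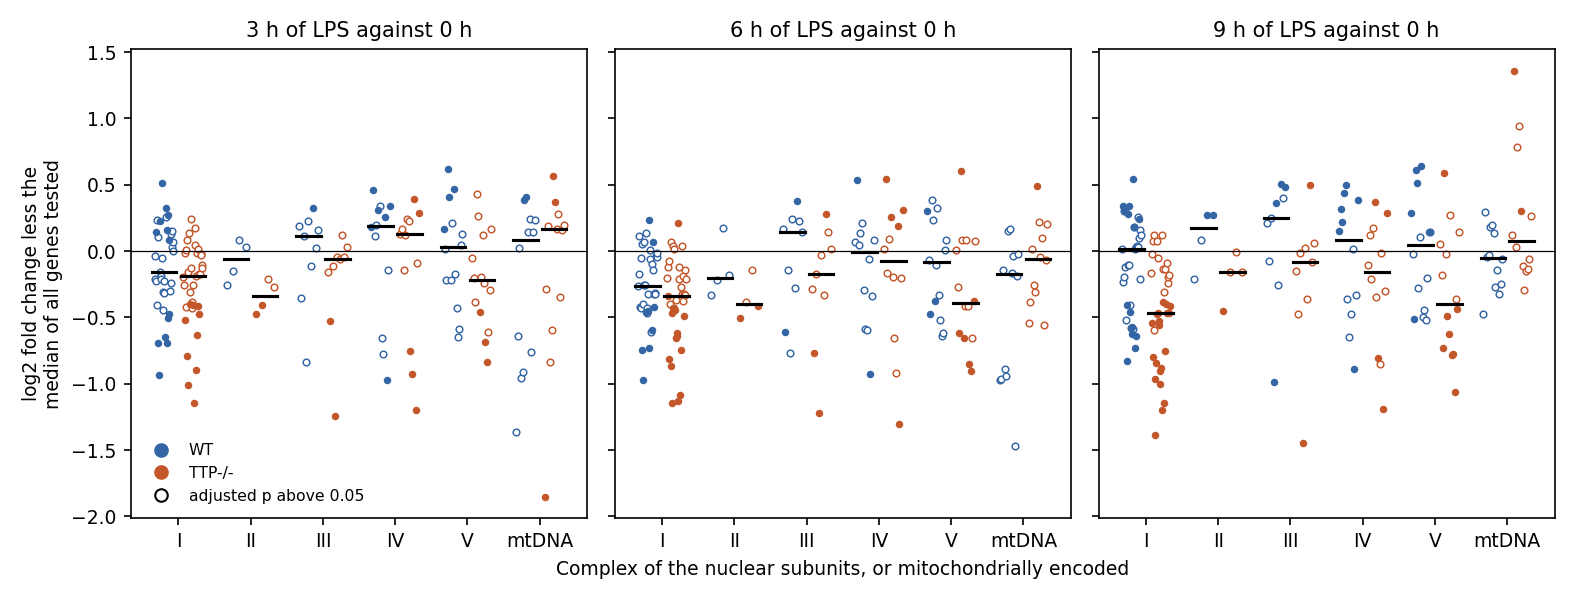
Log2 change of each subunit gene at 3, 6 and 9 h of LPS against 0 h, less the median change of all genes tested, by complex for nuclear genes and for the mitochondrially encoded genes (mtDNA); points are genes, bars are medians, filled points have an adjusted p of at most 0.05. For complex I at 9 h the median is 0.01 in WT and -0.47 in TTP-/-.

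Cox7b, Ndufa5 and Ndufs1 were lower in all 6 comparisons with 0 h, of which the 3 within a genotype share their untreated libraries, and so were 8.37% of all genes. Ndufs1, the largest iron-sulfur subunit of complex I, had 0.605, 0.584 and 0.653 FPKM on the common scale in untreated WT cells and 0.368, 0.410 and 0.409 at 9 h. In TTP-/- cells it had 0.938, 0.838 and 0.663 before and 0.446, 0.488 and 0.505 at 9 h. No library overlapped, and the changes at 9 h were -0.53 ± 0.11 (adjusted p = 0.00048) and -0.64 ± 0.11, with 15 of 15 alternatives past the threshold at 6 and 9 h in WT.

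Others were uneven among the untreated libraries. At 0 h WT replicate 2 and TTP-/- replicate 3 stood apart across genes. Chi-square per degree of freedom was 33.4 and 36.3 for WT pairs with replicate 2 and 9.24 for the pair without it. It was 74.2 and 75.7 for TTP-/- pairs with replicate 3 and 18.2 without. The deviations of these libraries correlated by 0.71, and they enter every LPS comparison of their genotype. Cox7b, a small X-linked complex IV subunit, had 20.1, 11.9 and 21.3 in WT and 24.9, 24.9 and 11.5 in TTP-/- at 0 h, with WT replicate 2 and TTP-/- replicate 3 low. At 9 h it had 8.83, 10.2 and 11.1 in WT and 7.96, 12.0 and 7.85 in TTP-/- (changes of -0.78 ± 0.31 and -1.07 ± 0.31). The times overlapped in TTP-/-, where the highest 9 h library lay above the lowest untreated one, and the WT call was lost without WT replicate 1, WT replicate 3 or TTP-/- replicate 1. Uqcrb, which lies at the ubiquinone site of complex III, had the same low libraries, with 11.7, 6.37 and 12.6 in WT and 15.1, 15.9 and 7.38 in TTP-/- at 0 h. On the log2(FPKM + 0.1) scale Uqcrb showed the strongest fall of any tested nuclear subunit in TTP-/- at 9 h. It went to 4.04, 5.56 and 4.74 (-1.33 ± 0.34, 2.52-fold, limma adjusted p = 0.0023), and the call was lost without TTP-/- replicate 1 (limma adjusted p = 0.063). The added 0.1 shrinks the changes of genes with low FPKM, such as Ndufa5 below, so this order depends on it.

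Ndufa5 had 0.834, 0.511 and 0.961 in WT and 1.36, 1.18 and 0.553 in TTP-/- at 0 h, on 48 to 425 reads per library. It was at 0.263, 0.484 and 0.306 in TTP-/- at 9 h (-1.27 ± 0.27, 2.42-fold, adjusted p = 0.00044). Ndufb6 of the complex I membrane arm went from 4.19, 3.5 and 2.67 to 1.32, 1.75 and 1.59 in TTP-/- (-1.09 ± 0.22) and was called in every omission at 3, 6 and 9 h. Ndufc1 went from 9.97, 8.49 and 6.53 to 3.17, 5.04 and 3.86 (-1.03 ± 0.22), again without overlap. In all, 11 of the 74 genes (14.9%) were lower in at least 4 of the 6 comparisons, beside 18.2% of all genes tested, namely Atp5c1, Atp5f1, Cox7b, Ndufa4, Ndufa5, Ndufb11, Ndufb5, Ndufb6, Ndufc1, Ndufs1 and Uqcrb.

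At the other end Atp5d, Cox5a, Cox6b1, Cox8a, Ndufb7 and Uqcrfs1 were higher in at least 4 of the 6 comparisons, which is 8.11% of the 74 beside 30.9% of all genes. Uqcrfs1, the Rieske iron-sulfur protein of complex III, had 11.5, 11.9 and 11.7 at 0 h and 16.8, 19.7 and 17.7 at 9 h in WT (0.62 ± 0.09). In TTP-/- it had 13.7, 12.0 and 12.0 and then 18.4, 20.8 and 18.5 (0.61 ± 0.09, adjusted p = 7e-06). Both genotypes rose by a similar amount, without overlap of times, but with all assigned reads as the scale neither rise was called.

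Cox5a, a nuclear subunit bound at the matrix side of complex IV, had 15.3, 16.0 and 14.3 in WT at 0 h and 20.3, 25.1 and 26.4 at 6 h (0.64 ± 0.11, 1.56-fold). TTP-/- cells had 20.1, 17.4 and 19.5 and then 27.0, 28.5 and 34.2 (0.65 ± 0.11, 1.56-fold). Atp5d, the delta subunit of the ATP synthase central stalk, had 9.76, 11.3 and 8.29 in WT at 0 h and 16.6, 17.6 and 14.2 at 9 h (0.72 ± 0.26, adjusted p = 0.022), and 8.57, 7.51 and 10.8 and then 14.6, 13.7 and 15.1 in TTP-/- (0.70 ± 0.26). Atp5g3, another c-ring gene, rose in WT at 9 h from 48.1, 58.9 and 43.4 to 81.6, 93.0 and 77.6 (0.75 ± 0.21, adjusted p = 0.0043). Ndufb7 (0.65), Atp5e (0.62) and Cox6b1 (0.61) rose by similar amounts there. No call in any of the 6 comparisons was made for 15 genes, among them Uqcrh, Atp5b, Cyc1 and Ndufv1.

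The genotypes do not share untreated libraries, so their lists can be set side by side. At 9 h all 10 genes that fell in WT also fell in TTP-/-, which is 100% of the WT list and 32.3% of the TTP-/- list of 31. At 3 h 7 genes fell in both (100% and 35.0%) and at 6 h 10 (90.9% and 40%). Of the rises at 9 h 4 were in both lists (17.4% and 100%). Over all genes 1367 fell in both genotypes at 9 h, 74.4% of the WT and 66.7% of the TTP-/- list, and 2445 rose in both (81.9% and 78.7%). At 3 h and 6 h the falls shared over all genes were 79.8% and 78.9% of the WT lists and 69.8% and 69.3% of the TTP-/- lists. A large shared part of the WT falls was thus usual over all genes. Among the subunits the shared part of the TTP-/- falls was smaller, at 32.3% to 40% beside 66.7% to 69.8%. The shared part of the WT rises was 11.8%, 60% and 17.4% at 3, 6 and 9 h, beside 80.0%, 83.6% and 81.9%. For the TTP-/- rises it was 100%, 42.9% and 100%, beside 84.0%, 81.3% and 78.7%. The subunit lists held 7, 11 and 10 falls in WT and 20, 25 and 31 in TTP-/-, and 17, 5 and 23 rises against 2, 7 and 4. Shared genes cannot outnumber the shorter list, so a low share of the longer list partly restates these unequal lengths. Over all genes the lists were closer in length, with 1838 and 2048 falls at 9 h. The differences in the shared parts were not tested and do not show less agreement between the genotypes. At 9 h 2 genes rose in one genotype and fell in the other, and at 3 and 6 h none did.

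On the common scale all 7 mitochondrial genes with many reads had changes above 0 at 3 h in both genotypes, with medians of 0.33 in WT and 0.27 in TTP-/-. mt-Nd1 rose at 3 h in WT from 12328, 9440 and 9733 to 15048, 15140 and 14099 (0.50 ± 0.15, adjusted p = 0.0071) and in TTP-/- from 12472, 15584 and 9934 to 18013, 16562 and 16505 (0.45 ± 0.15, adjusted p = 0.013). mt-Cytb rose at 3 h in WT (0.48 ± 0.15) and in TTP-/- at all 3 times (0.64, 0.60 and 0.41 ± 0.15), although at 9 h its libraries overlapped those at 0 h. With the exception of mt-Atp6, lower at 3 h in TTP-/- (-1.77 ± 0.60, adjusted p = 0.017), and mt-Atp8, higher at 9 h in TTP-/- (1.47 ± 0.62, adjusted p = 0.047), no other mitochondrial gene was called. Those 2 belong to the genes with few reads. The tested nuclear copies of mitochondrial DNA were called higher in TTP-/- at 9 h for 8 of 8, with a median of 1.44, and for 1 of 8 at 3 h and at 6 h. With all assigned reads as the scale no mitochondrial gene rose, and 2, 12 and 6 of the 12 fell in WT and 1, 1 and 3 in TTP-/-.

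Whether the LPS response itself differed between genotypes was tested with the interaction of genotype and time. At 3 and 6 h limma called no nuclear and no mitochondrial subunit, with 4 and 3 nuclear genes and 0 mitochondrial genes at an unadjusted p under 0.05, where the 3 h interaction was called higher for 2.4% and lower for 2.18% of all genes and the 6 h interaction for 4.99% and 3.08%. At 9 h 5 of 74 nuclear subunits (6.76%) were called lower and none higher, where 4.18% of all genes were lower and 5.46% higher, so the share of lower subunits lay near that of all genes. They were Atp5g1 (-0.73 ± 0.20), Atp5o (-0.57 ± 0.13), Ndufb9 (-0.56 ± 0.13), Ndufv3 (-0.53 ± 0.14) and Ndufs3 (-0.44 ± 0.14). Atp5g1 went on the common scale from 8.32, 7.64 and 9.44 to 5.70, 5.61 and 6.40 in TTP-/- and from 5.52, 6.20 and 4.49 to 5.84, 7.25 and 5.77 in WT. The median over the 74 genes was -0.32, with that of all genes at 0.01, and 71 of 74 values lay below 0, among them all 35 of complex I. All these values come from the same 0 h and 9 h libraries. The genes are thus not independent, the count is a description only, and it was not tested. For the mitochondrial genes with many reads the median was 0.08. Without TTP-/- replicate 1 none of the 5 calls remained, and without the other single replicates 2 to 6 were made.

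Genes of the cell cycle and of macrophages also differed in this interaction, in opposite directions. The interaction at 9 h was lower for 8 of 14 cell cycle genes with a median of -0.88, and their summed FPKM fell from 94.7 to 147 in untreated to 21.2 to 27.7 in 9 h TTP-/- libraries, beside 30.6 to 34.9 and 13.4 to 15.5 in WT. Macrophage genes were higher in the interaction for 4 of 9 (median 1.30). Their part in the subunit values was not tested.

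A paralog of Ndufa4 outside the name rule was measured as well. AA467197, also known as Nmes1, encodes an NDUFA4-like protein that can take the place of NDUFA4 in complex IV during inflammation. On the common scale it had 187, 145 and 187 in WT at 0 h and 321, 385 and 446 at 9 h (1.15 ± 0.20, 2.22-fold), with no call at 3 h (0.02, adjusted p = 0.94). In TTP-/- it went from 130, 125 and 86.3 to 444, 667 and 462 (2.20 ± 0.20, 4.60-fold). The LPS change at 9 h differed between genotypes by 1.06 ± 0.28 (interaction in limma, adjusted p = 0.020). Within a time AA467197 was not called between genotypes at 0 h (-0.64 ± 0.20, adjusted p = 0.0502, limma) or at 9 h. At 9 h the difference was 0.44 ± 0.19 (adjusted p = 0.113, limma) and the groups overlapped. Ndufa4 went from 8.55, 6.43 and 7.90 to 4.85, 6.27 and 6.05 in WT at 9 h (-0.41 ± 0.19, adjusted p = 0.081) and from 13.4, 13.4 and 7.38 to 5.66, 6.74 and 5.83 in TTP-/- (-0.85 ± 0.19, adjusted p = 0.0010). At 3 and 6 h Ndufa4 was lower in both genotypes (-0.60 and -0.64 in WT, -0.71 and -0.76 in TTP-/-). Atpif1, the inhibitor of ATP hydrolysis by complex V, was lower in TTP-/- than in WT at 0 h with 70.0, 73.2 and 60.2 against 110, 98.8 and 110 FPKM (-0.65 ± 0.12). At 9 h it had 29.4, 35.2 and 31.4 against 52.3, 55.8 and 57.1 (-0.79 ± 0.10, adjusted p = 0.00084).

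Genes that build and serve the complexes were counted in the same way, and their counts are to be set beside the 15.5%, 14.6%, 6.7% and 19.1% of all genes that were lower in TTP-/- at 0, 3, 6 and 9 h and the 13.9%, 11.3%, 10.4% and 17.7% that were higher. Of 31 tested assembly factors 6, 7, 2 and 8 were lower in TTP-/- at 0, 3, 6 and 9 h and 1, 0, 1 and 1 higher. Sdhaf1, which helps insert iron-sulfur clusters into complex II, was lower at 0 h (-0.94 ± 0.20), 6 h (-0.92 ± 0.17) and 9 h (-0.91 ± 0.09). Tmem70, an ATP synthase assembly factor, was lower at 3 h (-0.78 ± 0.08) and at 9 h (-0.88 ± 0.10). Of 71 mitochondrial ribosome and translation genes 3, 7, 1 and 16 were lower and 6, 2, 0 and 0 higher, with the 16 of 71 at 9 h near the 19.1% of all genes, and 9 had a lower interaction at 9 h, such as Mrpl18 (-0.73 ± 0.12). Of 16 TCA cycle and pyruvate genes 1, 0, 0 and 3 were lower and 3, 2, 1 and 3 higher; Idh3a, a subunit of isocitrate dehydrogenase, was higher at 0 h (0.81 ± 0.18) and fell in TTP-/- by 1.79 ± 0.13 over 9 h of LPS, and Fh1, fumarase, was higher at 0 h (0.63 ± 0.14) and fell by 1.65 ± 0.11.

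Of 15 carrier, uncoupling and outer membrane genes 4, 0, 0 and 1 were higher and 1, 1, 0 and 3 lower. Ucp2 was higher in TTP-/- at 9 h with 83.7, 78.4 and 72.5 FPKM against 46.9, 39.9 and 43.5 (0.85 ± 0.10), and Slc25a4, an ADP/ATP carrier, was lower (-0.45 ± 0.11). Of 12 regulators 1, 1, 1 and 4 were higher and 1, 1, 1 and 2 lower. Myc was higher at each time, with 12.7, 11.8 and 11.5 FPKM in TTP-/- against 5.4, 4.67 and 4.36 in WT at 0 h (1.31 ± 0.12), Nrip1 was lower at 0 h (-1.30 ± 0.13), and Esrra was higher at 9 h (0.56 ± 0.13). Of 14 mitochondrial RNA processing genes 2 were higher at 9 h and none was called earlier. Of 7 genes of mitochondrial DNA transcription and replication 2, 0, 1 and 0 were lower and none higher.

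Upstream sequence was examined for the nuclear subunits. RefSeq promoters (GRCm38.p6, 250 bases before to 50 after the start) matched 65 of 83 genes; Cox4i1 was not matched. Motifs were searched on both strands. GCGCATGC, the letters bound by NRF1, was found in 11 of 65 (16.9%) and in 3.05% of all 27025 promoters, CCGGAAG, the core of ETS factors, in 16 (24.6%, all 9.93%), and AAGATGGC, the YY1 core, in 9 (13.8%, all 3.19%). The promoters of the subunits lower in TTP-/- in most comparisons, and of the highest nuclear gene on exon length, are shown with motif matches in capitals (CTTCCGG is CCGGAAG read on the other strand).
Uqcrh (chr4:116075021-116075320, minus strand): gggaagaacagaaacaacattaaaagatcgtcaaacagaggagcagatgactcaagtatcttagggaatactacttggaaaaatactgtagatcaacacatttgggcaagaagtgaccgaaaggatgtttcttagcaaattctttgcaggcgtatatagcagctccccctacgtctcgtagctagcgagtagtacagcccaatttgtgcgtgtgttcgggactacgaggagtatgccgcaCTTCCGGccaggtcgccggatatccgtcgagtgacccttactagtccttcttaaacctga
Cox7a2l (chr17:83514284-83514583, minus strand): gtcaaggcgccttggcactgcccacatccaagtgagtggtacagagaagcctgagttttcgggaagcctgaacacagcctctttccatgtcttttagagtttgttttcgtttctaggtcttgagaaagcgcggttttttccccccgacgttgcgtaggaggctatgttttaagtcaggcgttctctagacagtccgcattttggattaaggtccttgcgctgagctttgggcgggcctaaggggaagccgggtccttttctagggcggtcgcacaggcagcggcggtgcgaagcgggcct
Cox8a (chr19:7217567-7217866, minus strand): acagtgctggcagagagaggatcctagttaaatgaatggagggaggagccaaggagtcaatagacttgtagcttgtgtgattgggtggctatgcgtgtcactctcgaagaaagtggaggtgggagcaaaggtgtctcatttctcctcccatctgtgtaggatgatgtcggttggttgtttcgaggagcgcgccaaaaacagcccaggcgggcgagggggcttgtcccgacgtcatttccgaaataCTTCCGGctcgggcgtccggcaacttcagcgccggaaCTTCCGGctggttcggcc
Uqcrh held 1 and Cox8a 2 matches to the ETS letters, and the Cox7a2l window held none of the 3 motifs.

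Base composition went along with the LPS changes. In WT at 9 h the subunits that rose had a median transcript GC content of 54.6% and those that fell of 49.1%, and at 3 h the medians were 54.6% and 45.1%. In TTP-/- they were 54.8% and 49.1% at 9 h, but 51.0% and 50.1% at 6 h. Across the 74 genes, which are not independent, Spearman's rho between GC content and the change was 0.35 to 0.50 over the 6 LPS comparisons and -0.20 to -0.03 over the 4 genotype comparisons; the points of a comparison share their libraries, and the part of GC content in the LPS changes was not tested.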

How the data were processed

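Poly(A)-selected libraries (Lexogen SENSE mRNA-Seq V2, which keeps strand; single reads of 100 bases) were trimmed with cutadapt, checked with FastQC and aligned with STAR 2.5 to GRCm38/mm10 by the authors; the read counter and annotation are not given in the sources used here. The authors deposited FPKM, 1 table for each of 4 times, together with a mean signal per gene and their own DESeq2 fold changes and p-values, which were not used. All FPKM values gave whole reads to within 0.05 (100% of values), with gene lengths that mostly included introns. Genotypes were compared within a time by limma 3.58.1 (R 4.3.3; trend) on log2(FPKM + 0.1), 3 libraries against 3, for genes whose mean over the 24 libraries reached 0.5 FPKM, with Benjamini-Hochberg adjustment over all genes tested and a threshold of 0.05. LPS changes and interactions were fitted over 24 libraries after median-ratio scaling of the recovered reads. A fit of those reads with voom, other pseudocounts (1 and 0.01), no filter or a minimum of 5 FPKM, other scalings, a replicate block and omission of each replicate were alternatives. Genes named were all mitochondrial members, up to 4 of the strongest called rises and falls per comparison without overlap, the top gene of each complex, isoforms, complex II, Zfp36, AA467197 and up to 3 genes per list. Values of 1 member are not reported here. Members and lists were chosen with earlier results of these data known. Same-numbered replicates deviated together in the genotype comparison at 6 h (correlations of 0.217 to 0.504) and in no other. Replicates differed beyond sampling noise (chi-square per degree of freedom 5.49 to 81.7 over 24 pairs), and p-values measure the spread of these cultures. The 19966708 to 25553546 assigned reads per library limit precision for low genes.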

Additional observations from a re-analysis of the deposited data

Results flagged for a closer look

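The LPS response at 9 h differed between genotypes by the interaction test for 5 nuclear subunits, all with a lower response in TTP-/- cells. They are 6.76% of the 74 tested, near the 4.18% of all genes that this test called lower. The difference in log2 change was -0.73 for Atp5g1 (adjusted p = 0.023, limma), -0.57 for Atp5o (adjusted p = 0.0075), -0.56 for Ndufb9 (adjusted p = 0.0097), -0.53 for Ndufv3 (adjusted p = 0.021) and -0.44 for Ndufs3 (adjusted p = 0.050). Ndufb9 had 8.73, 10.4 and 9.27 FPKM on the common scale in untreated WT and 11.1, 12.3 and 11.3 at 9 h, but 11.1, 10.4 and 13.3 in untreated TTP-/- and 9.02, 9.91 and 9.75 at 9 h. The calls were past the threshold in 15 of 16 alternatives for Ndufb9, 13 of 15 for Atp5o, 12 of 15 for Ndufv3, 11 of 16 for Atp5g1 and 5 of 15 for Ndufs3, and none was kept without TTP-/- replicate 1. Groups held 3 libraries, so single libraries were not tested as outliers.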

How the results depend on the processing

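LPS changes of single genes were taken less the median of all genes, which removes a shift common to all genes, so their signs do not test the scaling. On the scale of the calls themselves, scaling to all assigned reads left 0 of the 17, 5 and 23 rises in WT. Over the named genes and their alternatives, left-out replicates included, the call was kept 960 times and lost 272 times; the cause was not tested where a count moved. Counts below are of nuclear subunits, and of mitochondrial genes where said. Genotype calls at 0 h were 5 higher with voom, 9 with one fit of all 24 libraries, 8 on TPM, 9 higher and 1 lower scaled to all assigned reads, and 9 higher scaled to reads not from mitochondrial DNA. At 3 h they were 0 higher with one fit of 24, 2 higher and 2 lower on TPM, 6 and 2 with all assigned reads, 7 and 1 with reads not from mitochondrial DNA, and 0 and 3 with no filter. At 6 h they were 1 higher with voom and with no filter, 1 and 5 with one fit of 24, 0 lower on TPM and with all assigned reads, and 1 and 0 with reads not from mitochondrial DNA. At 9 h they were 2 higher with no filter, 2 and 7 on TPM and with all assigned reads, and 3 and 6 with reads not from mitochondrial DNA. Mitochondrial genes then called higher were 2 at 3 h (voom, TPM and both read totals), 1 at 6 h (the same and one fit of 24) and 2 at 9 h on TPM or 1 with either read total.

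With the replicate block the genotype calls were 0 higher with 1 lower at 0 h, 0 with 2 at 3 h, and 5 with 5 plus 1 higher mitochondrial gene at 6 h, and mitochondrial genes higher after LPS were 1 in WT at 9 h and 2 and 1 in TTP-/- at 6 and 9 h. The block moved no other count by over 1.5 times. Same-numbered replicates correlated in their deviations by -0.58 to 0.50, with every pair above 0.1 in the genotype comparison at 6 h only.

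Under scaling to all assigned reads, subunits lower after LPS at 3, 6 and 9 h were 46, 62 and 46 in WT and 56, 64 and 65 in TTP-/-, with 0 higher, and mitochondrial genes lower were 2, 12 and 6 in WT and 1 and 3 in TTP-/- at 6 and 9 h, with 0 higher. With reads not from mitochondrial DNA they were 48, 67 and 49 and 56, 66 and 66, with 0 higher, and 2, 12 and 6 and 1 and 3 mitochondrial genes. On FPKM as deposited they were 44, 61 and 46 and 55, 64 and 65, with 0 higher, and 2, 9 and 5 and 1 and 3 mitochondrial genes. A minimum of 5 FPKM, which tests fewer genes, left 3, 6 and 6 lower in WT and 7, 12 and 13 in TTP-/-, 0 mitochondrial genes lower at 3 h and 1 higher at 9 h in TTP-/-, and 2 interactions at 9 h. With no filter 6 were lower in WT at 9 h and 0 mitochondrial genes rose in WT at 3 h or in TTP-/- at any time. At 6 h 1 interaction was called with voom and with no filter. A pseudocount of 1 gave 1 mitochondrial gene lower in WT at 3 h and one of 0.01 gave 1 higher in TTP-/- at 9 h.

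Leaving out each replicate in turn gave, for genotype, 0 to 8 higher and 1 to 3 lower at 0 h, 0 to 5 and 1 to 16 at 3 h (mitochondrial 0 to 2 higher), 0 to 1 and 0 to 5 at 6 h, and 0 to 1 and 5 to 19 at 9 h. For LPS in WT it gave 7 to 14 higher and 2 to 10 lower at 3 h, 3 to 13 and 4 to 13 at 6 h, and 15 to 22 and 3 to 15 at 9 h. In TTP-/- it gave 1 to 6 and 5 to 22 at 3 h, 2 to 7 and 10 to 30 at 6 h, and 1 to 5 and 11 to 34 at 9 h. Mitochondrial genes were 0 to 2 higher and 0 to 1 lower at 3 h and 0 to 1 lower at 6 h in WT, and 1 to 2 higher and 0 to 1 lower at 3 h, 0 to 3 higher at 6 h and 0 to 2 higher at 9 h in TTP-/-. Lower interactions were 0 to 1 at 6 h and 0 to 6 at 9 h. Precision is limited for genes with few reads, among them the 6 mitochondrial genes with nuclear copies or low counts. Why those 6 genes held few reads was not tested.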
